A study of Mus musculus with 9 samples.

Results

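The receptors that carry serotonin, acetylcholine, dopamine, noradrenaline and adrenaline signals were compared in the hippocampal transcriptome of mice with and without an activating Braf mutation. Members were all genes whose symbol began with Htr and a digit, Chrm, Chrn, Drd, Adra or Adrb, and whose mean over the 9 libraries was at least 10 in the deposited unit, a read count normalised between libraries. Of the 18275 genes in the table, 39 carried such a symbol and 36 reached that mean. They comprised 11 serotonin receptor genes, 5 muscarinic and 9 nicotinic acetylcholine receptor genes, 3 dopamine receptor genes and 8 adrenergic receptor genes. The minimum was applied to the mean over both genotypes, and 35 of the 36 had a mean of at least 10 in each group. The symbols were chosen with earlier results of these data known.

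The 4 Nestin;BrafKE/+ libraries came from mice with a Cre-dependent knock-in of the K499E variant of Braf, a kinase of the RAS/MAPK pathway. The knock-in was switched on by Nestin-Cre, which acts in neural stem cells from the embryonic period, so that neurons as well as the glia made from those cells carried 1 mutant and 1 normal allele. The 5 Braf+/+ libraries came from littermates with normal Braf. All mice were C57BL/6N males of 11 to 15 weeks, and each library was total RNA of dissected hippocampus from 1 mouse. The groups are called mutant and control from here on.

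All these transmitters reach the hippocampus in axons whose cell bodies lie elsewhere: serotonin from the raphe nuclei, acetylcholine mainly from the medial septum, noradrenaline from the locus coeruleus, and dopamine from the midbrain and the locus coeruleus. The receptors are made by hippocampal cells themselves, besides those carried on the incoming axons. Most are G protein-coupled: those coupled to Gs raise cyclic AMP, those coupled to Gi/o lower it and open potassium channels, and those coupled to Gq/11 activate phospholipase C. The nicotinic genes and Htr3a instead encode subunits of ligand-gated cation channels.

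Each library's values were whole multiples of a single step between 0.993 and 1.00, and summed to between 19551300 and 20091500. Since the values had been adjusted for batches before deposit, neither the step nor the total gives the sequencing depth, which is unknown. Library names carried 4 prefixes, and those beginning with 84 (2 controls) and 85 (1 mutant, 1 control) were merged into 1 series, since the first holds no mutant. This left 3 series, of 4, 3 and 2 libraries, each with both genotypes, and the series was a term in the fit. Braf itself was at 2264 ± 144 (SD, n = 4) in mutants and 2786 ± 153 (SD, n = 5) in controls, with a log2 fold change of -0.30 and a limma adjusted p of 0.0379. Such gene totals do not show which allele was read.

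Among 16196 genes tested with limma on log2(value + 1), 466 (2.88%) had an adjusted p under 0.05, of which 246 (1.52% of those tested) were higher in mutants and 220 (1.36%) lower. Of the 36 receptor genes, 3 (8.33%) passed: Htr5b rose, and Drd5 and Htr1a fell. At an unadjusted p under 0.05 the receptor count was 8 (22.2%), 1 higher and 7 lower. In the whole table it was 2991 genes (18.5%), 1435 higher and 1556 lower. Mutant and control libraries did not overlap for 9 receptor genes (25%), 1 higher and 8 lower. They did not overlap for 2550 of all genes (15.7%), which were not counted by direction. At the unadjusted threshold the receptor share was thus near that of all genes. The median log2 fold change of the receptor genes was -0.05 and that of all genes 0.00033, while the median size of the change, regardless of sign, was 0.23 for receptors and 0.12 for all genes. Precision mostly rose with the level. The fitted difference carried a median SE of 0.25 on the log2 scale in the 14 receptor genes with the lowest means (up to 100). The median SE was 0.12 in the 19 intermediate ones and 0.062 in the 3 highest. Of the 3 highest, Chrm1 and Chrnb2 had an SE of 0.061 and 0.062, but Htr2c had 0.23.

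**Figure D1:**
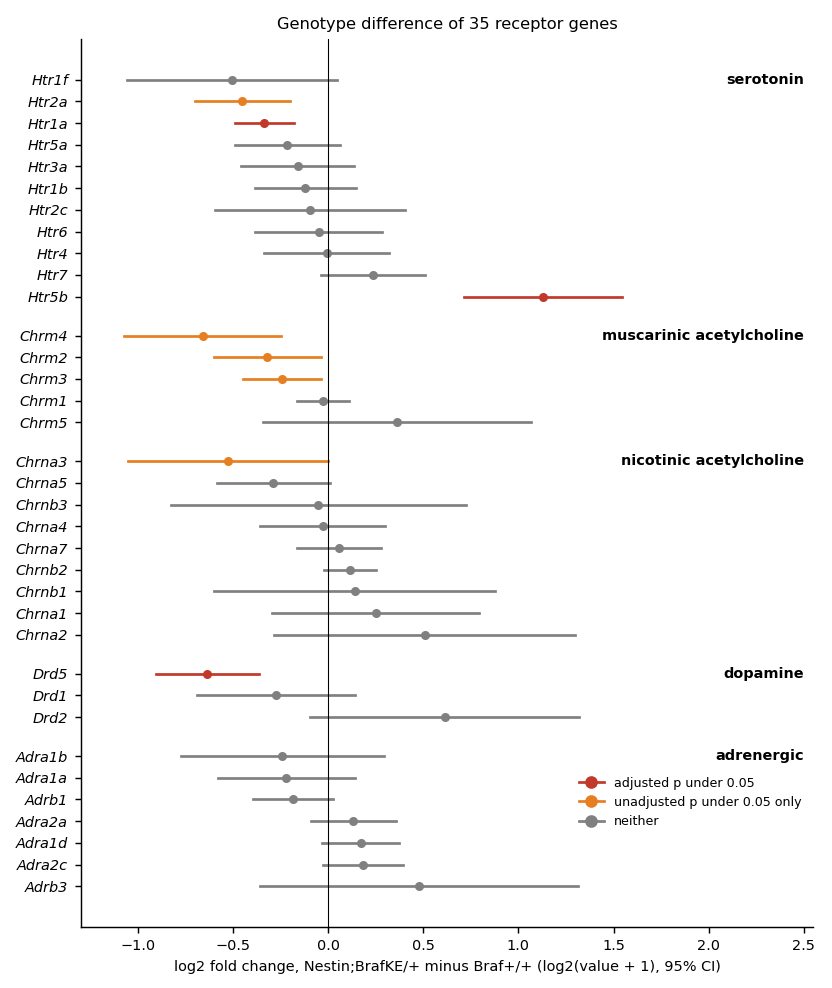
Log2 fold change (mutant minus control, on the log2(value + 1) scale) of 35 of the 36 receptor genes with 95% confidence intervals from limma, grouped by transmitter. Red marks an adjusted p under 0.05, orange an unadjusted p under 0.05 only, and grey neither. Htr5b lies alone to the right at 1.13, and the adrenergic genes shown all have intervals that include 0.

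Some cell type markers moved with genotype as well. This bears on every receptor gene here, because in bulk tissue fewer cells of a type and less RNA per cell cannot be told apart. Of 16 marker lists, 8 held at least 1 gene past the threshold. Among CA1 pyramidal cell markers, 2 of 6 rose (Wfs1 and Fibcd1), and the summed value of the list was 14840 to 15020 in mutants and 11950 to 12230 in controls. Among dentate gyrus granule cell markers, 3 of 7 fell (Dsp, Lct and Stxbp6), with sums of 6616 to 7199 against 7635 to 8230. The rest of that list, Prox1, C1ql2, Tdo2 and Pdzd2, had log2 fold changes of -0.05, 0.04, 0.05 and 0.07. Their limma adjusted p ran from 0.692 to 0.925, so the granule cell markers did not move together. None of the 7 markers of CA2 and CA3 pyramidal cells passed, 4 having an unadjusted p under 0.05, and their sums were 4008 to 4304 against 4385 to 4926. Oligodendrocyte markers rose in 4 of 6 cases and astrocyte markers in 3 of 8. No gene of the table was listed at 0 in any library. The part of these shifts in the receptor results was not tested.

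Htr5b gave the clearest change. It encodes the 5-HT5B receptor, a serotonin receptor that rodents have and that in humans has lost its coding function, and whose RNA is known from the habenula, the raphe and CA1. The gene (ENSMUSG00000050534) lies on the minus strand of chromosome 1 at 121437397 to 121456241 (GRCm39). Its values in mutant replicates 1 to 4 were 184.7, 199.7, 231 and 223, and in control replicates 1 to 5 they were 138, 74.0, 94.6, 89.4 and 89.1. Every mutant library lay above every control library, and among the controls replicate 1 was the highest. The means were 209.6 ± 21.2 (SD, n = 4) and 97.0 ± 24.2 (SD, n = 5), and the fitted log2 fold change was 1.13 (SE 0.19, limma adjusted p = 0.0134), a 2.19-fold rise. Within the 3 series of library names the log2 difference was 0.89, 1.25 and 1.32. In a two-sided exact permutation test over the 24 splits of libraries within series p was 0.0417, the smallest that this test can give, and over all 126 splits of 4 against 5 it was 0.0159.

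The call on Htr5b was lost when some libraries were left out, although its direction held. Mutant replicate 1 was the only mutant of its series, and control replicate 4 the only control of its series. Leaving out either thus took a whole series out of the genotype contrast. Without mutant replicate 1 the adjusted p was 0.0674 and without control replicate 4 it was 0.0942, with log2 fold changes of 1.28 and 1.06. The adjusted p was 0.124 without both control replicates 2 and 4, and 0.0321 with the 4 name prefixes as the term in place of the 3 series. Over all alternatives that were run the adjusted p ran from 0.00128 to 0.124. Of 7 habenula markers 5 were tested and none passed (0 also at an unadjusted p under 0.05). Their summed value was mostly Nwd2 (619 to 708 in mutants and 558 to 739 in controls), while Tac2, Gpr151, Gng8 and Slc5a7 lay between 7.03 and 50.7 in all libraries with standard errors of 0.25 to 0.42, so habenular content is poorly measured here. The CA1 markers, whose sums did not overlap between groups as given above, moved in the same direction, and their part in the Htr5b result was not tested. Gm71055 and Gm8217 are annotated on the opposite strand of Htr5b, and the kit kept strand.

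Htr5a, the closest relative of Htr5b, was at 251, 240.4, 228 and 201 in mutants and at 233, 301, 245, 256 and 303 in controls. The ranges overlapped and the log2 fold change was -0.21 (95% CI -0.49 to 0.06, adjusted p = 0.402). The ratio of the Htr5b value to the Htr5a value was 0.736 to 1.11 in mutants and 0.246 to 0.592 in controls, with means of 0.922 ± 0.170 (SD, n = 4) and 0.373 ± 0.133 (SD, n = 5). The ratio was higher in all mutant libraries than in any control, as was Htr5b alone.

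**Figure D2:**
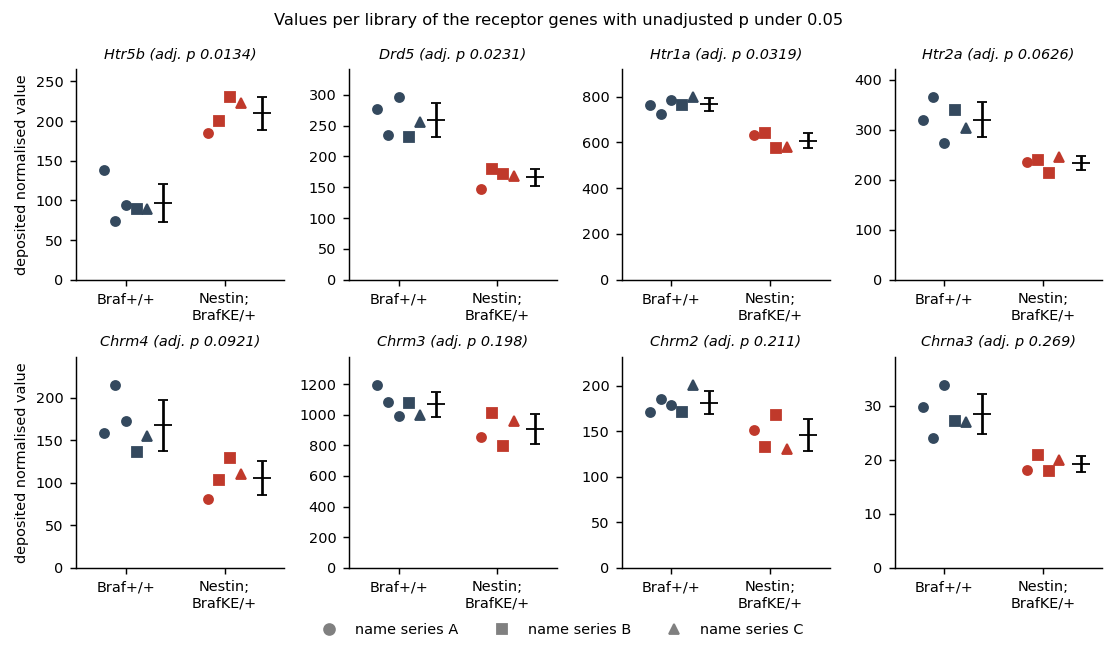
Deposited normalised values of the 8 receptor genes with an unadjusted p under 0.05, 1 point per library, with the shape giving the series of library names and bars giving the group mean ± SD (n = 5 controls, n = 4 mutants). All axes start at 0. The genotypes separate completely for every gene shown except Chrm3, and mutants are higher for Htr5b only.

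Drd5 fell. It encodes the dopamine D5 receptor, a Gs-coupled receptor of the D1-like class that is prominent in the hippocampus. The gene (ENSMUSG00000039358) lies on the plus strand of chromosome 5 at 38476710 to 38479861 (GRCm39). Values in the mutant libraries were 147, 179, 171 and 168, and in the controls 276, 235, 297, 231 and 255. The highest mutant value was below the lowest control value. Group means were 165.9 ± 13.7 (SD, n = 4) and 258.8 ± 27.8 (SD, n = 5), and the log2 fold change was -0.64 (SE 0.12, limma adjusted p = 0.0231), which is 0.643 of the control level. The log2 differences within the 3 series were -0.87, -0.40 and -0.60. The exact permutation test gave the smallest p it allows both within series (0.0417) and over all splits (0.00794).

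The Drd5 call was lost with an adjusted p of 0.159, 0.0590 and 0.0579 when mutant replicate 1, 3 or 4 was left out, and of 0.0525 and 0.0604 without control replicate 4 or 5. It was also lost with the 4 name prefixes as the term (0.0610) and without both control replicates 2 and 4 (0.0615), and kept with choroid plexus content as a covariate (0.0125). The direction held in each case, and the adjusted p over all alternatives ran from 0.00175 to 0.159. Gm26560, an RNA annotated on the opposite strand over Drd5, was at 24.5 ± 9.34 (SD, n = 4) in mutants and 40.7 ± 12.7 (SD, n = 5) in controls (log2 fold change -0.73, adjusted p = 0.291). 4930487D11Rik, on the same strand, also overlaps Drd5, so reads of the shared stretch are of uncertain origin.

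Htr1a also fell, by less but with less spread. It encodes the 5-HT1A receptor, a Gi/o-coupled receptor that opens potassium channels in pyramidal and granule cells and acts as an autoreceptor in the raphe. The gene (ENSMUSG00000021721) is on the plus strand of chromosome 13 at 105580147 to 105584630 (GRCm39), and no other annotated gene overlaps it. Mutants were at 630.5, 643, 576 and 582, and controls at 762, 726, 784, 764 and 799.7. The 2 ranges were separated by a gap wider than the SD of either group. With means of 608 ± 33.6 (SD, n = 4) and 767 ± 27.6 (SD, n = 5), the log2 fold change was -0.34 (SE 0.07, limma adjusted p = 0.0319), or 0.792 of the control level. The series gave -0.26, -0.33 and -0.46, and the exact permutation p was 0.0417 within series and 0.00794 over all splits.

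Of the 3 calls this was lost most often when 1 library was left out. The adjusted p rose to 0.101, 0.0871 and 0.0957 without mutant replicates 1, 3 and 4, and to 0.0596, 0.0543, 0.126 and 0.0986 without control replicates 1, 3, 4 and 5. With the 4 name prefixes as the term it was 0.0579 and without both control replicates 2 and 4 it was 0.141, over an overall range of 0.00187 to 0.141. The log2 fold change itself stayed between -0.38 and -0.29 when any 1 library was left out.

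Promoter sequence is shown for Drd5 and Htr1a, the called genes that fell and that have an entry in the RefSeq promoter table used (GRCm38.p6), which held 26 of the 36 receptor genes. Htr5b had no entry. The bases printed run 5′ to 3′ on the plus strand up to the base before the Gencode start of the gene, and capitals mark each GGGCGG, the GC box core, found on either strand. The windows are chr5:38319259-38319366 (108 bases) and chr13:105443443-105443638 (196 bases).
Drd5: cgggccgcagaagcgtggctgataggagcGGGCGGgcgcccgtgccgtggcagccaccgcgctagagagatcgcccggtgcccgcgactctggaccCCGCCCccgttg
Htr1a: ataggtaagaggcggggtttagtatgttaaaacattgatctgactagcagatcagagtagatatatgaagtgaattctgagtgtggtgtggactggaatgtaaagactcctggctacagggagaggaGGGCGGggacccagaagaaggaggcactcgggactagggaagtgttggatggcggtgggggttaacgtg

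Each motif was searched on both strands in the 250 bases before the RefSeq start of the 2 genes and of all 32851 entries of the table. Drd5 held GGGCGG at 2 places and Htr1a at 1, against 32.7% of all entries with at least 1. Neither held TGACGTCA (1.55% of all entries), TGANTCA (6.75%), CCGGAAG (6.91%), GCGNGGGCG (4.7%) or TATAAA (12.4%), which only says that these letters are not in these windows. GC made up 71.2% of the Drd5 window and 50.4% of the Htr1a window, with a median of 52.4% over the table.

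Among the other 9 serotonin receptor genes, 1 more had an unadjusted p under 0.05. Htr2a encodes the Gq/11-coupled 5-HT2A receptor, the target of classic psychedelics, and was at 236, 240.4, 213 and 245 in mutants and 319.9, 366, 273, 340.5 and 303 in controls. The groups did not overlap (means 234 ± 14.5, SD, n = 4, and 320.5 ± 35.5, SD, n = 5), and the log2 fold change was -0.45 (SE 0.11) with an adjusted p of 0.0626. That p was 0.0463 without control replicate 3 and 0.282 without control replicate 4, over a range of 0.00747 to 0.351 in all alternatives. Htr1f, a Gi/o-coupled receptor at low level, did not overlap between groups either (19.1 to 26.0 in mutants and 26.1 to 42.8 in controls), but the edges of the 2 ranges nearly touched and the adjusted p was 0.312.

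Htr2c, whose receptor is known for its abundance in the choroid plexus, the epithelium that makes cerebrospinal fluid, had the highest mean among the serotonin receptor genes. It was at 1537, 929, 1127 and 1179 in mutants and at 1027, 1715, 852, 1650.1 and 1249 in controls. Neither group stood above the other (log2 fold change -0.10, 95% CI -0.60 to 0.41, adjusted p = 0.862). Choroid plexus markers varied far more: the sum of the 10 genes, led by transthyretin (Ttr), ran from 5020.0 to 39040 in mutants and from 14780 to 429000 in controls, with control replicates 2 and 4 highest. Those 2 libraries were also the highest for Htr2c. With the choroid plexus level as a covariate, the Htr2c log2 fold change was 0.28 (adjusted p = 0.260), and without control replicates 2 and 4 it was 0.37 (adjusted p = 0.407), so the sign turned, over a range of adjusted p from 0.260 to 0.999. None of the 10 choroid plexus genes passed the threshold, and 4 had an unadjusted p under 0.05. With control replicates 2 and 4 left out of the whole fit, 58 genes of the table and 0 receptor genes passed. That fit also lost the series of control replicate 4 from the genotype contrast, since it held no other control.

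**Figure D3:**
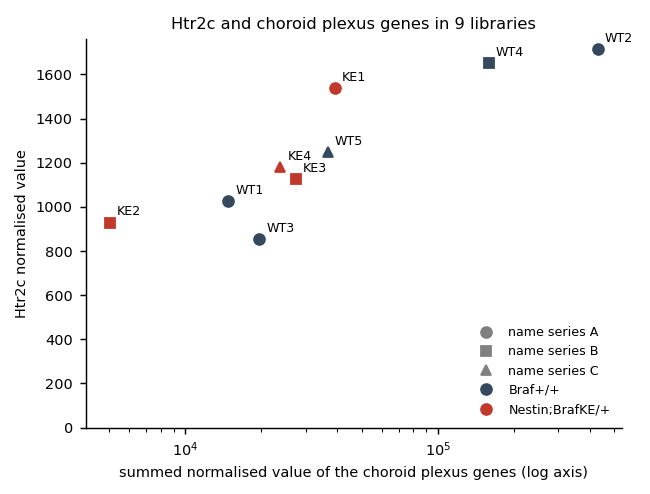
Htr2c normalised value (vertical axis) against the summed normalised value of the 10 choroid plexus genes (horizontal log axis) in each of the 9 libraries, KE for mutant and WT for control with the replicate number. WT2 and WT4 are highest on both axes, and mutants and controls are interleaved.

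The remaining serotonin receptor genes did not separate the genotypes. Htr7, a Gs-coupled receptor, was at 194.8, 195.7, 209 and 193 in mutants and 169.9, 198, 142, 162 and 172 in controls, with a single control inside the mutant range, a log2 fold change of 0.24 and an adjusted p of 0.349. The Gs-coupled Htr4 and Htr6, the Gi/o-coupled Htr1b and the channel subunit Htr3a had log2 fold changes of -0.0084, -0.05, -0.12 and -0.16 and adjusted p of 0.984, 0.896, 0.642 and 0.567. Htr4 ran from 185 to 283 in mutants and 189.8 to 260.04 in controls, Htr6 from 68.8 to 81.5 and 69.3 to 80.1, Htr1b from 147 to 188 and 173 to 204, and Htr3a from 152 to 204 and 177 to 221, so that the groups overlapped for all 4. Beside the 11 members, Htr1d had a mean of 5.78 and was not tested.

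The muscarinic genes gave 0 of 5 past the limma threshold, and 3 at an unadjusted p under 0.05 (18.5% of all genes), all 3 lower in mutants. Chrm4 encodes the Gi/o-coupled M4 receptor. It was at 80.3, 103, 129 and 111 in mutants and at 158, 215, 172, 136 and 155 in controls, without overlap. The means were 106 ± 20.1 (SD, n = 4) and 167 ± 29.8 (SD, n = 5), and the log2 fold change was -0.66 (SE 0.19, adjusted p = 0.0921). Single libraries moved this value widely, to -0.34 without mutant replicate 1 (adjusted p = 0.418) and to -0.89 without control replicate 4 (adjusted p = 0.103), over a range of adjusted p from 0.0172 to 0.418 in all alternatives. Chrm4 overlaps Gm75422, annotated on the same strand, and where the 2 share bases reads cannot be told apart.

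Chrm2, the Gi/o-coupled M2 receptor that acts as a release-limiting autoreceptor on cholinergic axons, was at 152, 133, 168 and 131 in mutants and 171, 185, 179, 171 and 201 in controls. The 2 groups were separate by a narrow gap, with a log2 fold change of -0.32 (SE 0.13) and an adjusted p of 0.211. Chrm3, the Gq/11-coupled M3 receptor, was at 853, 1013, 796 and 963 in mutants and 1197, 1082, 989.6, 1078 and 1001 in controls. Its groups overlapped through mutant replicate 2, and the log2 fold change was -0.24 (SE 0.09, adjusted p = 0.198).

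Chrm1, the Gq/11-coupled M1 receptor of principal neurons, had the highest value of all members: 3570.0, 3908, 3608 and 3910.4 in mutants and 4211, 3723, 3716, 3801 and 3659 in controls. The log2 fold change was -0.03 with a 95% CI of -0.16 to 0.11 (adjusted p = 0.851). The ranges overlapped, with control replicate 1 alone at the top. Chrm5 was at 33.8 to 46.2 in mutants and 16.9 to 51.0 in controls (log2 fold change 0.36, adjusted p = 0.587).

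None of the 9 nicotinic subunit genes passed limma, and 1 had an unadjusted p under 0.05, against 18.5% of all genes. Chrna3 encodes the alpha3 subunit of ganglionic and habenular receptors. Its values were 18.1, 20.9, 18.0 and 19.9 in mutants and 29.8, 24.0, 33.8, 27.1 and 27.0 in controls, without overlap, and the log2 fold change was -0.53 (SE 0.24, adjusted p = 0.269). Chrna5, which encodes an accessory subunit, was at 87.3, 82.5, 90.9 and 80.8 in mutants and 105, 109, 96.6, 101 and 110.1 in controls. It too did not overlap between groups, with a log2 fold change of -0.29 (SE 0.13) and an adjusted p of 0.285. These genes lie on opposite strands of chromosome 9 and overlap at their 3′ ends (Chrna5 to 54918184 and Chrna3 from 54917395, GRCm39). Their neighbour Chrnb4 had a mean of 8.66 and was not tested.

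The nicotinic genes with the highest values were level between genotypes within their intervals. Chrnb2, the beta2 subunit of the main brain heteromers, was at 1343, 1419, 1434 and 1339 in mutants and 1256, 1364, 1246, 1200.2 and 1319 in controls (log2 fold change 0.12, 95% CI -0.02 to 0.25, adjusted p = 0.355). Its groups overlapped through control replicate 2. Chrna4, its usual partner, was at 368, 339, 385 and 405 in mutants and 313, 516, 345, 408 and 352 in controls, so that the mutants lay inside the control range, with control replicate 2 at the top. Its log2 fold change was -0.03 (95% CI -0.36 to 0.30, adjusted p = 0.942), and the sign turned with choroid plexus content as a covariate (0.18). Chrna7, which forms calcium-permeable homomers, was at 383, 401, 344 and 363 in mutants and 408, 328, 332, 359 and 367 in controls, again with the mutants inside the control range (log2 fold change 0.06, 95% CI -0.16 to 0.28, adjusted p = 0.804). The low members Chrna1, Chrna2, Chrnb1 and Chrnb3 had log2 fold changes of 0.25, 0.51, 0.14 and -0.05 and standard errors of 0.25 to 0.36, larger than those of the abundant subunits. Their values over all 9 libraries were 19.9 to 32.9, 10.002 to 29.95, 14.01 to 33.8 and 7.95 to 13.9, and the groups overlapped in each.

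The limit of 10 fell among the nicotinic and adrenergic genes. Chrnb3 (mean 10.2) and Adrb3 (mean 14.5) were just inside. Chrnb4 (8.66) and Chrna1os (8.65), a long non-coding RNA caught by the symbol rule, were just outside. Within Chrnb3 the mutant mean was 9.98 and the control mean 10.4.

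Of the other dopamine receptor genes, Drd1, the Gs-coupled relative of Drd5, was at 60.2, 72.5, 46.9 and 56.8 in mutants and 75.5, 77.0, 58.7, 71.3 and 73.1 in controls. The ranges overlapped, and the log2 fold change was -0.27 (95% CI -0.69 to 0.14, adjusted p = 0.478). The Drd5 to Drd1 ratio of values overlapped too, at 2.43 to 3.64 in mutants and 3.05 to 5.05 in controls (exact permutation p = 0.167 within series, 0.103 over all splits). Drd2, the Gi/o-coupled receptor best known from the striatum, was at 80.3, 47.7, 92.8 and 38.9 in mutants and 35.8, 37.0, 35.8, 33.1 and 62.1 in controls. High and low values occurred in both groups (log2 fold change 0.61, 95% CI -0.09 to 1.32, adjusted p = 0.344). The log2 difference was 1.13 and 0.99 in the first 2 series and -0.66 in the third. The summed striatal markers ran from 2448 to 2955 in mutants and from 2872 to 3317 in controls, and 1 of those 8 genes passed, Ppp1r1b, which fell.

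The adrenergic genes gave no call: 0 of 8 passed limma at an adjusted p under 0.05, 0 of 8 had an unadjusted p under 0.05, and 0 of 8 were without overlap between groups. Adra1d, a Gq/11-coupled receptor, was at 909, 1104, 846 and 945 in mutants and 934, 789, 836, 806 and 842 in controls (log2 fold change 0.17, 95% CI -0.03 to 0.37, adjusted p = 0.360). The Gi/o-coupled Adra2c was at 491, 606, 517 and 515 in mutants and 481, 447, 512, 419.8 and 481 in controls (log2 fold change 0.18, 95% CI -0.03 to 0.39, adjusted p = 0.342). In both, the mutant mean was higher but a control library lay within the mutant range. Adra2a, also Gi/o-coupled, was at 334, 307, 334 and 309 in mutants and 271, 333, 266, 294 and 304 in controls. Control replicate 2 was as high as the highest mutants, and the log2 fold change was 0.13 (95% CI -0.09 to 0.35, adjusted p = 0.530).

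Among the Gs-coupled beta receptors, Adrb1 was at 269, 298, 249.6 and 287 in mutants and 319.9, 296, 330.5, 319 and 300.3 in controls. Only mutant replicate 2 and control replicate 2 crossed, and the log2 fold change was -0.18 (95% CI -0.39 to 0.03, adjusted p = 0.336). Adrb3 was low, at 8.01 to 23.8 over all libraries, with a log2 fold change of 0.48 and an adjusted p of 0.544. The Gq/11-coupled Adra1a and Adra1b gave -0.22 and -0.24 with adjusted p of 0.511 and 0.641, at 88.3 to 126 and 46.2 to 71.8 in mutants and 107 to 138 and 49.7 to 87.0 in controls.

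Levels can be compared between genes only per length, and were divided by the summed length of each gene's merged exons. On this scale (normalised value per kb) the median of the receptor genes in controls was 32.8, against 62.6 over the 16134 genes with a length. Chrm1 was highest at 478 ± 27.9 (SD, n = 5), followed by Adra1d at 202 ± 13.5 and by Htr1a and Chrm3, both at 171. Chrm1, Adra1d and Htr1a did not overlap one with the next in control libraries. Further down, each gene overlapped its neighbour in the order, through Chrnb2 (151), Htr2c (139), Adra2c (136), Chrm4 (116), Adrb1 (92.6) and Drd5 (82.1), to Chrnb3 at 1.63 ± 0.39.

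**Figure D4:**
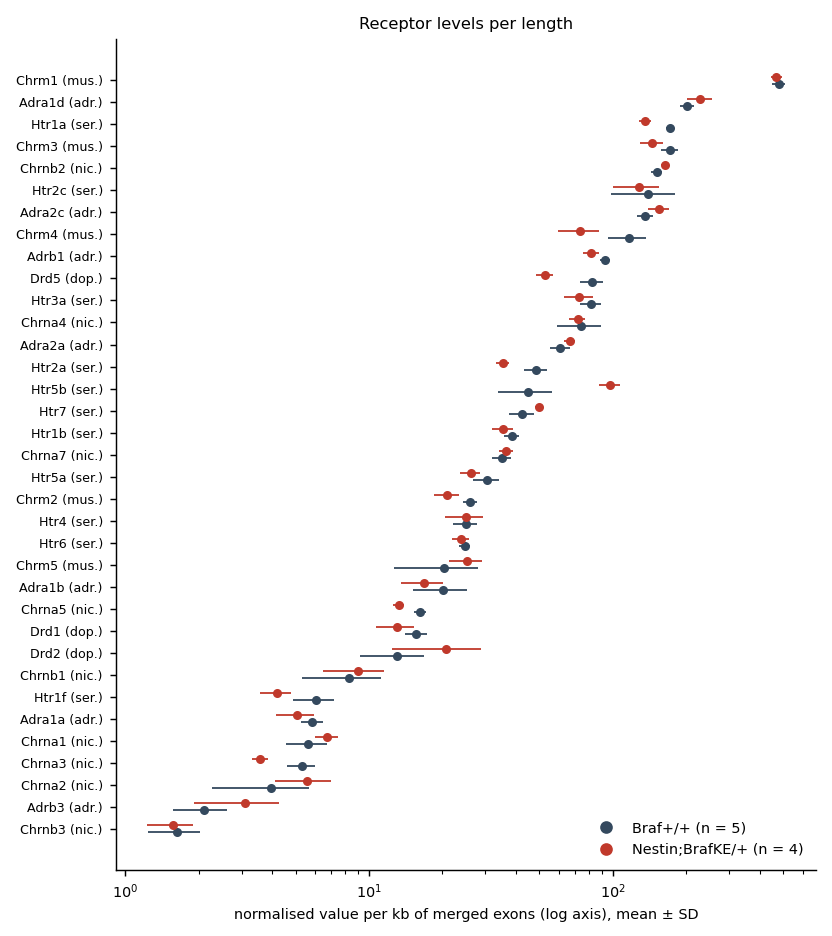
Normalised value per kb of merged exons (log axis) of 35 of the 36 receptor genes, as mean ± SD over 5 control and 4 mutant libraries, ordered by the control mean, with the transmitter class abbreviated in brackets. Chrm1 is at the top at 478 in controls, and the points of Htr5b are the farthest apart, 45.0 in controls and 97.2 in mutants.

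Htr5b, per kb, went from 45.0 ± 11.2 (SD, n = 5) in controls to 97.2 ± 9.83 (SD, n = 4) in mutants, where it was above Drd5, which went from 82.1 ± 8.82 to 52.6 ± 4.36. Htr1a went from 171 ± 6.15 to 136 ± 7.50 per kb. These lengths count every annotated exon, so a gene that uses a short isoform is placed too low.

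Grouping the members by coupling, a grouping made after their values had been seen, gave a median log2 fold change of -0.22 over 9 Gi/o-coupled receptors, of which 6 had a negative value, 1 passed and 3 had an unadjusted p under 0.05. For 8 Gq/11-coupled receptors the median was -0.16 with 6 negative values and 0 past the threshold, and 2 of these 8 had an unadjusted p under 0.05. Over 8 Gs-coupled receptors it was -0.03 with 5 negative values, and the 1 gene past the threshold was also the 1 with an unadjusted p under 0.05. The 10 channel subunits had a median of 0.01 with 5 negative values and 0 past the threshold, 1 having an unadjusted p under 0.05. Htr5b, whose coupling is not settled, was left out of these groups. Of all 16196 genes tested, 8083 had a negative value, 2.88% passed and 18.5% had an unadjusted p under 0.05. With 8 to 10 genes per group the counts are small, and differences between the groups were not tested. Across the 3 series of library names, 21 of the 36 members (58.3%) had the same sign throughout, 13 of them negative and 8 positive. Among the 16196 genes tested it was 5924 (36.6%), 2955 of them negative and 2969 positive.

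Transmitter supply was measured through enzymes and transporters that make, move or break down the transmitters. No gene of the serotonin, acetylcholine or catecholamine lists passed (0 of 5, 0 of 5 and 0 of 5 tested by limma, with 0, 2 and 1 at an unadjusted p under 0.05). Tph2, the serotonin-synthesising enzyme of raphe neurons, was at 29.95 to 43.7 in mutants and 20.9 to 33.0 in controls (log2 fold change 0.34, SE 0.25, adjusted p = 0.5001). Th, which makes the catecholamine precursor, was at 10.04 to 22.9 and 4.02 to 12.01 (log2 fold change 0.74, SE 0.43, adjusted p = 0.405). Both were low and their groups overlapped. Ddc, Slc18a2 and Slc5a7, an enzyme and 2 transporters of these axons, had log2 fold changes of 0.28, -0.15 and 0.13 and adjusted p of 0.367, 0.641 and 0.906. Tph1, Slc6a4, Chat, Slc18a3, Colq, Dbh, Pnmt, Slc6a3 and Slc6a2 were under the minimum or not in the table. Ache, which breaks down acetylcholine, was at 1076 ± 46.8 (SD, n = 4) in mutants and 924 ± 44.0 (SD, n = 5) in controls (log2 fold change 0.22, adjusted p = 0.106).

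Proteins that assemble or tune nicotinic receptors gave 1 gene higher and 1 lower among 8. Lypd1, a Ly6-family protein that dampens nicotinic receptors, fell from 1880.0 ± 198 (SD, n = 5) in controls to 1200.0 ± 84.7 (SD, n = 4) in mutants (log2 fold change -0.64, SE 0.09, adjusted p = 0.00576). Lynx1, of the same family and with a like role, rose from 7140.0 ± 348 to 8650.0 ± 434 (log2 fold change 0.28, SE 0.06, adjusted p = 0.0319). The members of this list thus moved in opposite directions.

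Downstream of the receptors, none of the 10 G protein alpha subunit genes passed, the closest being Gnai2 (log2 fold change 0.23, adjusted p = 0.0750) as the only one with an unadjusted p under 0.05. Among adenylyl cyclases and phospholipase C beta genes, 1 of 12 passed: Adcy1, the calcium-stimulated cyclase, fell by 0.37 on the log2 scale (adjusted p = 0.0140). Among kinases, arrestins and RGS proteins that end receptor signalling, 1 of 15 passed: Grk3 fell by 0.31 (adjusted p = 0.0218). Of 16 cyclic AMP effectors and phosphodiesterases, 3 passed. Pde1a, a calmodulin-dependent phosphodiesterase, rose by 0.44 (adjusted p = 0.00425), its relative Pde1b fell by 0.31 (adjusted p = 0.0432), and Ppp1r1b, the dopamine-regulated phosphatase inhibitor DARPP-32, fell by 0.56 (adjusted p = 0.0402). In all, 7 of 76 pathway genes (9.21%) passed, 2 higher and 5 lower, against 2.88% of all genes tested, 1.52% higher and 1.36% lower. The pathway lists were chosen with earlier results of these data known, and the difference between these shares was not tested.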

How the data were processed

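Total RNA of the hippocampus of 9 mice had been sequenced from stranded mRNA libraries. Per the study's methods and processing notes, the authors trimmed reads with Trim Galore, aligned them with STAR to GRCm39 (Gencode vM28), quantified them with Salmon and adjusted batches, which are not named, before DESeq2. The deposited values are thus a normalised signal per gene, not raw counts, so no count model was used.

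Values were tested as log2(value + 1) with limma 3.58.1 in R 4.3.3 (trend, two-sided) over genes with a mean of at least 10, with terms for genotype and the series of library names and Benjamini-Hochberg adjustment over all 16196 genes at 0.05. Single values were tested by exact permutation. Both tests take the 9 libraries as independent, which values adjusted for batches before deposit need not be. Lengths and positions came from Gencode release 39 on GRCm39, and promoters from RefSeq (GRCm38.p6). Named genes were those past the threshold, then those with an unadjusted p under 0.05, then the 3 highest means per class, then those nearest the minimum mean. Members, lists and tests were chosen with earlier results of these data known. 1 adrenergic receptor gene is counted but its values are not reported here. Replicate numbers carry no stated pairing. The fit was tested on data simulated with independent libraries, which cannot show how it behaves where libraries are not independent. Alternatives were other pseudocounts, filters, scalings, weights, terms and thresholds, and leaving out libraries.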

Additional observations from a re-analysis of the deposited data

Results flagged for a closer look

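In 4 of 72 groups of receptor values a single library stood apart by Dixon's criterion, about as many as the 1 in 20 that chance gives. For Drd2 the ratio of gap to range was 0.866 in controls, where replicate 5 was at 62.1 and the others at 33.1 to 37.0. For Chrm1 it was 0.742 in controls, with replicate 1 at 4211 and the others at 3659 to 3801. Chrna2 gave 0.829 in mutants, with replicate 3 at 29.95 and the others at 17.9 to 19.9. Htr7 gave 0.850 in mutants, with replicate 3 at 209 and the others at 193 to 196.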

How the results depend on the processing

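The sequencing depth is unknown, only 9 libraries were compared and the batches adjusted by the authors are not named, so small differences of low genes could not be detected. Against 3 receptor genes and 466 genes of the table in the reported fit, 7 and 2260 passed without a series term, 1 and 165 with 4 name prefixes as the term, and 5 and 927 at a threshold of 0.1. Array quality weights left 258 genes of the table. With both control replicates 2 and 4 left out, a setting chosen after seeing the data, 0 and 58 passed. Leaving out 1 library gave 0 to 3 receptor genes and 42 to 371 genes of the table, lowest without mutant replicate 1 (0 and 42) and control replicate 4 (0 and 97). Each of these was the only library of its genotype in its series, so leaving it out also took that series out of the genotype contrast. The same holds for the fit without control replicates 2 and 4. The replicate numbers do not pair the samples: the deviations of same-numbered libraries correlated at -0.39, -0.078, 0.069 and 0.42. Other pairs were more closely tied. Mutant replicate 4 and control replicate 5, the only libraries of their series, correlated at -0.997, and mutant replicate 1 and control replicate 4 at 0.634. The libraries were thus not independent across genotypes, while the limma and permutation p-values take them as such. The reason was not tested. A replicate block in place of the series term gave 5 and 1405.

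Of the 3 called genes, Htr5b kept its call in 7 of 9 fits that left out 1 library, Drd5 in 4 and Htr1a in 2. These fits are not all separate checks. Mutant replicate 4 and control replicate 5 were the only libraries of their series, so leaving out either gave the same contrast. With 4 name prefixes the adjusted p was 0.0610 for Drd5 and 0.0579 for Htr1a, and 0.0321 for Htr5b.

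Among the genes reported, signs turned only for those that were not called. With 4 name prefixes the log2 fold change was 0.0043 for Chrm1, 0.0182 for Chrna4 and 0.0591 for Htr4, and with quality weights 0.00525 for Chrna4. Added after seeing the data, a choroid plexus covariate gave 0.184 for Chrna4, -0.0107 for Chrna7 and 0.279 for Htr2c. Without control replicates 2 and 4 the values were 0.179 for Chrna4, 0.0674 for Chrnb3 and 0.373 for Htr2c. Leaving out 1 library gave -0.0712 to 0.0310 for Chrm1, -0.110 to 0.0508 for Chrna4, -0.227 to 0.410 for Chrnb1, -0.295 to 0.154 for Chrnb3, -0.259 to 0.00746 for Htr1b, -0.429 to 0.221 for Htr2c, -0.262 to 0.000802 for Htr3a, -0.214 to 0.238 for Htr4 and -0.142 to 0.00830 for Htr6. The cause was not tested.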
